A study of Mus musculus with 12 samples.

Results

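Freshly sorted muscle stem cells (MuSCs) of wild-type (WT) mice were sequenced in both experiments of this series, so that 6 of its 12 libraries hold the same labelled cell type and genotype. These 6 libraries were taken by their labels. In the genotype cohort, 3 WT libraries (01, 02 and 03) served as the controls of 3 Nedd4L-cKO libraries, in which Pax7-driven Cre deletes a floxed part of the ubiquitin ligase gene Nedd4l in MuSCs. In the culture cohort, 3 WT libraries (04, 05 and 06) were the starting cells of 3 myoblast libraries grown for 3 days from the same mice. The genotype cohort held male mice aged 5 to 6 weeks. For the culture cohort, the study's methods say that myoblasts for in vitro work came from males and give age only as a range over the whole study. The sources used here do not give the floxed and Cre alleles that the WT mice of either cohort carried. The line has a C57BL/6 background. Each library was made by SMART-seq, a full-length cDNA method primed on the poly(A) tail from 1000 cells. The gate kept hindlimb cells positive for ITGA7 and Hoechst and negative for CD31, CD45, CD11b and SCA1.

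MuSCs, or satellite cells, lie between the myofiber and its basal lamina and are mostly quiescent in adult muscle. They are marked by the transcription factor PAX7, and after injury or in culture they induce MYOD1, enter the cell cycle and become myoblasts. Enzymatic digestion of muscle and sorting take long enough for immediate early genes to be transcribed, and a MuSC sort can also carry RNA of mural cells, which wrap small vessels, and of connective tissue cells that surround the fibers.

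The authors normalized the 2 experiments in separate tables, so a level in one is not on the scale of the other. The 15167 genes listed in both tables were therefore ranked within each library, with rank 1 for the highest normalized count. Levels are given as RPM, normalized counts scaled to 1000000 in each library over these genes. RPM are compared between libraries for 1 gene at a time, and the cohort cannot be told apart from the table. The labels used here give no sorting session or sequencing run, so any such difference cannot be told apart from the cohort. Nor can a difference in mouse age or alleles. Because the cells were lysed in bulk, fewer cells of a type and less RNA per cell cannot be told apart either. The deposited values do not give read depth. Normalized totals over the shared genes ranged from 35813635 to 42414390.

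The defining genes of MuSCs were abundant in all 6 libraries. Pax7 was at 189, 327 and 232 RPM in genotype-cohort libraries 01, 02 and 03, and at 234, 149 and 148 RPM in culture-cohort libraries 04, 05 and 06. Myf5, the myogenic factor of quiescent MuSCs, was at 407, 890 and 474 RPM against 265, 276 and 407 RPM. The calcitonin receptor gene Calcr, a quiescence gene, was at 276, 329 and 265 RPM against 271, 133 and 164 RPM. Vcam1, a surface protein used to sort MuSCs, was at 437, 621 and 557 RPM against 312, 471 and 437 RPM. The BMP antagonist gene Chrdl2 was at 295, 343 and 215 RPM against 524, 299 and 282 RPM. The ranks of these 5 genes overlapped between the cohorts. The MuSC markers Itga7 and Cdh15 were higher in every culture-cohort library. Itga7 was at 132, 114 and 125 RPM against 232, 164 and 195 RPM, and Cdh15 at 144, 132 and 153 RPM against 178, 204 and 199 RPM. Ptprc, which encodes the excluded antigen CD45, did not pass 0.503 RPM in any of the 6 libraries. Pecam1, which encodes the excluded CD31, was listed at 15.5, 25.6 and 18.2 RPM against 8.86, 12.5 and 15.7 RPM, while Kdr and Cldn5, also endothelial, were listed in neither table. Ly6a, which encodes SCA1, was at no more than 0.654 RPM.

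Libraries of 1 cohort were more alike than libraries of different cohorts. Over the 8639 genes that averaged 10 RPM or more across the 6 libraries, the Spearman correlation of ranks was 0.929 to 0.943 for the 3 pairs within the genotype cohort, 0.923 to 0.961 for the 3 pairs within the culture cohort, and 0.855 to 0.905 for the 9 pairs between them. These are correlations across genes, which are not independent replicates. Ranks at least 2-fold apart were found for 1.32% to 1.90% of genes within the genotype cohort, 0.475% to 3.24% within the culture cohort and 3.67% to 8.60% between the cohorts. Culture-cohort libraries 05 and 06 were the closest pair, and library 04 stood apart from both. Of the 378 genes whose ranks spanned at least 2-fold within the culture cohort, library 04 was the one farthest from the median for 291. Over the 1070 genes above 200 RPM, the log2 ratios of libraries 05 and 06 had an SD of 0.274, and those of the other pairs within a cohort, over the genes above 200 RPM in each, 0.395 to 0.451. The labels give libraries 05 and 06 different numbers. Of the 294 genes that spanned at least 2-fold within the genotype cohort, library 03 was farthest for 129, library 01 for 95 and library 02 for 70.

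**Figure D1:**
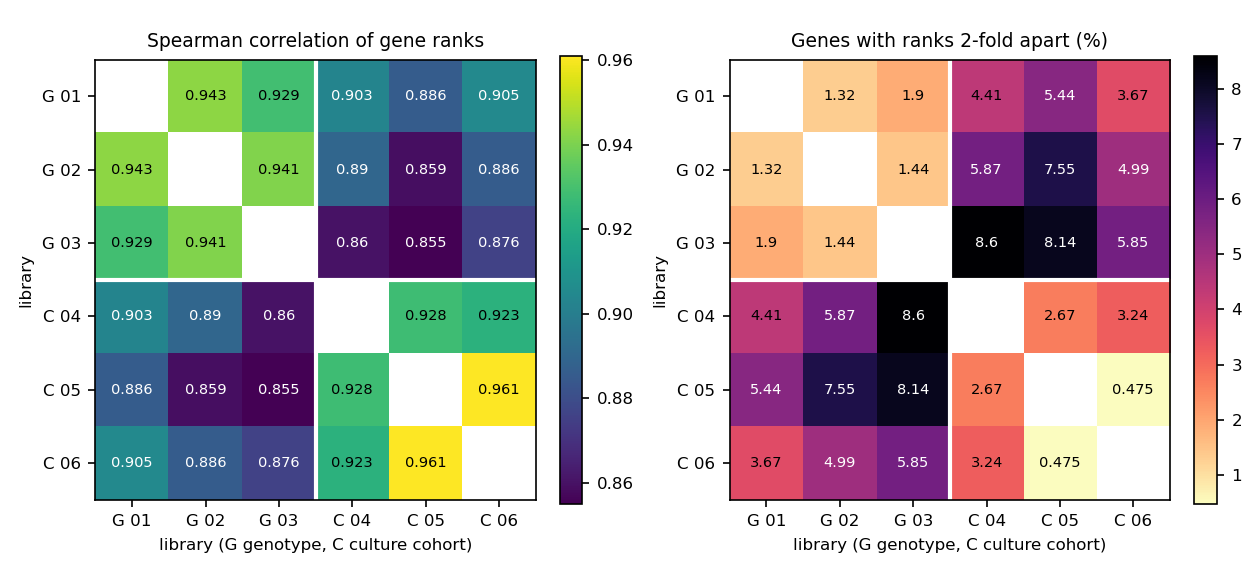
Pairwise comparison of the 6 WT MuSC libraries over 8639 genes (G, genotype cohort; C, culture cohort). Left, Spearman correlation of within-library gene ranks; right, the percentage of genes with ranks at least 2-fold apart. The 9 pairs between cohorts, at 0.855 to 0.905, all lie below the 6 pairs within a cohort, the closest of which is C 05 with C 06 at 0.961.

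A common set of genes led all 6 libraries. To compare levels between genes, normalized counts were divided by the length of the gene's canonical transcript and scaled to an equal total in every library, and this length-scaled level is used in this and the next paragraph. Of the 142 genes that reached the top 100 in any library, 62 were in the top 100 of all 6. The polyubiquitin gene Ubb was at a length-scaled level of 9160, 6910 and 7600 in the genotype cohort and 11000, 8100 and 7700 in the culture cohort. Ubb-ps and Gm8797, both annotated as separate genes, were also shared, but 98.2% and 85.7% of their 31-base words are found in Ubb, so their counts cannot be separated from it with confidence. The neuropeptide gene Gal was at 7560, 9680 and 6840 against 4640, 4990 and 5220. Genes for iron storage and antioxidant defence were in the set, namely the ferritin genes Ftl1 and Fth1 and the extracellular glutathione peroxidase gene Gpx3. Fth1 was at 5140, 5380 and 5950 against 3500, 4470 and 4670. The constitutive chaperone gene Hspa8 was at 5760, 4670 and 4920 against 6470, 4840 and 3470, and the tetraspanin gene Cd63 at 5560, 4580 and 4680 against 5480, 4840 and 4900.

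The shared set also held 6 of the 13 mitochondrially encoded genes, 11 cytosolic ribosomal protein genes and 5 pseudogenes. It held 1 gene of the immediate early list, Fos, at 2460, 3860 and 4070 against 3880, 6780 and 6380. The only gene of the MuSC list in it was the heparan sulfate proteoglycan gene Sdc4, at 2980, 3910 and 1360 against 3150, 1830 and 2320. Top 100 membership in all libraries of one cohort and in none of the other was rare. Prdx1, mt-Nd4, Rps28, Rps27 and the pseudogene Gm28437 were among those that had it in the genotype cohort, and H2az2 and Junb had it in the culture cohort.

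Gene ranks were then compared between the cohorts. A gene was called when the 3 ranks of one cohort all lay outside the range of the other, its mean was at least 10 RPM, and the geometric mean ranks were at least 2-fold apart. This fold of ranks is not a fold of levels, since a small change in level moves many ranks where genes are dense. Of 8639 genes, 275 were called (3.18%). They comprised 174 that ranked higher in the genotype cohort (2.01%) and 101 that ranked higher in the culture cohort (1.17%). Without the 2-fold rule, ranks of 1318 genes (15.3%) lay wholly above in the genotype cohort and of 1560 (18.1%) in the culture cohort. The gap between cohorts was larger than the wider within-cohort range for 58 of the 174 and 33 of the 101. Leaving out genotype-cohort library 01 or culture-cohort library 04 changed the count of genes higher in the culture cohort from 101 to 171 or 163. Spon2 and Eno1 lay just outside the 2-fold rule, with log2 rank folds of 0.995 and -0.997, and Ube2c and Fnip1 just inside it, with -1.002 and 1.004.

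**Figure D2:**
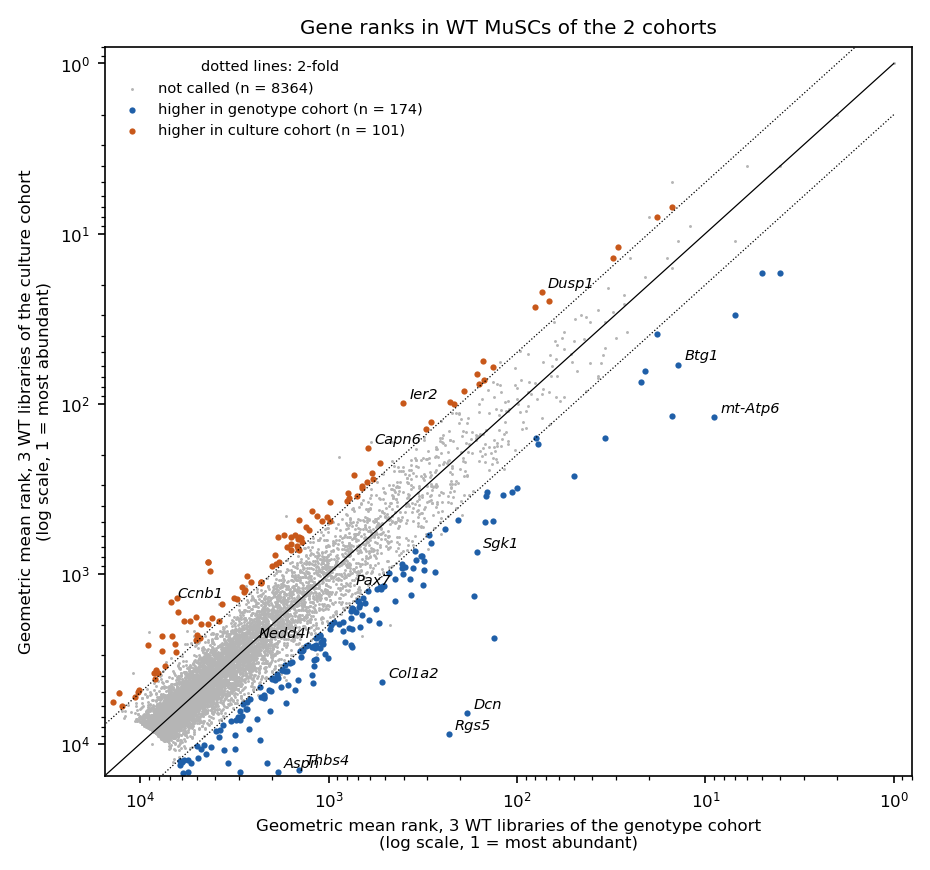
Geometric mean rank of 8639 genes in the 3 WT libraries of the genotype cohort (x axis) and of the culture cohort (y axis), both on log scales with rank 1 at the upper right. Blue, 174 genes called higher in the genotype cohort; orange, 101 called higher in the culture cohort; grey, not called; solid line, equal ranks; dotted lines, 2-fold. Rgs5 and Dcn lie farthest from the line on the genotype-cohort side.

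The genes farthest apart in rank, Rgs5 and Dcn, are known from mural and connective tissue cells, and both ranked higher in the genotype cohort. Rgs5 (GRCm39 chr1:169483036-169524887), a regulator of G-protein signaling that marks pericytes, was at 288, 617 and 1080 RPM in the genotype cohort and at 15.5, 4.2 and 8.3 RPM in the culture cohort. Its ranks were 622, 210 and 94 against 7414, 10205 and 9002, a 38.1-fold difference in geometric mean rank. Kcnj8 and Abcc9, which encode the subunits of an ATP-sensitive potassium channel of mural cells, lie beside each other on chromosome 6. Kcnj8 was at 34.5, 53.3 and 124 RPM against 2.23, 3.42 and 3.44 RPM, and Abcc9 at 16.1, 42.4 and 68.8 RPM against 1.55, 2.07 and 1.67 RPM. All 3 genes were highest in genotype-cohort library 03 and lowest in library 01, and no library of the culture cohort reached the lowest of them.

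Dcn (GRCm39 chr10:97315275-97358155), which encodes the matrix proteoglycan decorin, was at 1120, 209 and 1290 RPM in the genotype cohort against 5.4, 43.6 and 19.5 RPM, a 35.8-fold difference in rank. Its neighbour Lum, another small leucine-rich proteoglycan gene, was at 26.2, 3.37 and 47.1 RPM against 0.0573, 1.04 and 1.95 RPM. Thbs4, a matrix glycoprotein gene of tendon, was at 397, 31.7 and 159 RPM against 0.0774, 0.330 and 0.0575 RPM. Col1a2, a chain of type I collagen, was at 803, 91.1 and 404 RPM against 24.2, 72.0 and 41.8 RPM. In these 4 genes genotype-cohort library 02 was well below libraries 01 and 03. Even so, library 02 remained above every culture-cohort library. For Col1a1, the other type I chain, it did not: Col1a1 was at 527, 51.5 and 153 RPM against 35.6, 106 and 89.9 RPM and was not called. Aspn, a proteoglycan gene of tendon and cartilage, was at 90.4, 59.4 and 233 RPM and was listed at 0, 0 and 0.224 RPM in the culture cohort. The matrix calcification inhibitor gene Mgp was at 102, 20.8 and 107 RPM and listed at 0, 0.208 and 0 RPM. The fatty acid transporter gene Cd36 was at 35.3, 99.1 and 217 RPM against 0.278, 0.713 and 0.721 RPM. The chemokine gene Cxcl12 was at 30.9, 51.8 and 73.4 RPM against 11.1, 10.5 and 10.7 RPM.

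The whole marker lists give the scale of these signals. Of 9 mural markers, all listed, 5 passed 10 RPM. Rgs5, Kcnj8 and Abcc9 ranked higher in the genotype cohort, while Acta2, smooth muscle actin, ranked higher in the culture cohort at 976, 555 and 731 RPM against 1300, 1270 and 1060 RPM. These calls stand beside 2.01% and 1.17% of all genes. Acta2 lost its call without genotype-cohort library 02 or culture-cohort library 04, with log2 rank folds of -0.76 and -0.98, and Abcc9, ranked per kb, at 0.95. The summed mural level was 1490 to 2180 RPM against 1290 to 1520 RPM. Of 12 fibro-adipogenic markers, 5 passed, and Dcn and Lum were called higher in the genotype cohort, beside 2.01% of all genes. Ranks of 1 other marker lay wholly above in the culture cohort, beside 18.1% of all genes, and it was not called. The log2 rank folds of the list ran from -0.763 to 5.161, with a median of 0.269. Lum lost its call without genotype-cohort library 01 or 03 or culture-cohort library 04, with log2 rank folds of 0.96, 0.70 and 0.93. The defining Pdgfra was at 1.37, 0.0763 and 0.714 RPM against 2.24, 0 and 1.16 RPM, and Ly6a at no more than 0.654 RPM. The sum of the fibro-adipogenic list was 2390 to 3340 RPM over 12 listed genes against 2620 to 3030 RPM over 11. The 5 tenocyte markers summed to 1560, 196 and 730 RPM in the genotype cohort, and the 3 of them listed in the culture table to 10.3, 11.2 and 10.7 RPM. Of these markers, 2 passed 10 RPM, and 1, Thbs4, was called higher in the genotype cohort, beside 2.01% of all genes. The tenocyte marker Scx was at 22.4, 8.8 and 9.06 RPM against 8.81, 9.2 and 8.41 RPM and was not called. Endothelial markers summed to 67.5 to 119 RPM over 7 listed genes against 43.6 to 46.1 RPM over 6, and glial markers to 20.3 to 59.4 RPM over 6 against 3.17 to 12.5 RPM over 3. Leukocyte markers summed to 3.21 to 41.7 RPM over 6 against 3.43 to 6.83 RPM over 5, and 35.1 RPM of the highest sum was Lyz2, which was not listed in the culture table. Hemoglobin genes varied within both cohorts, with erythroid sums of 0.111 to 540 RPM against 22.7 to 394 RPM, and none was called. The part that other cell types play in the rank differences was not tested.

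**Figure D3:**
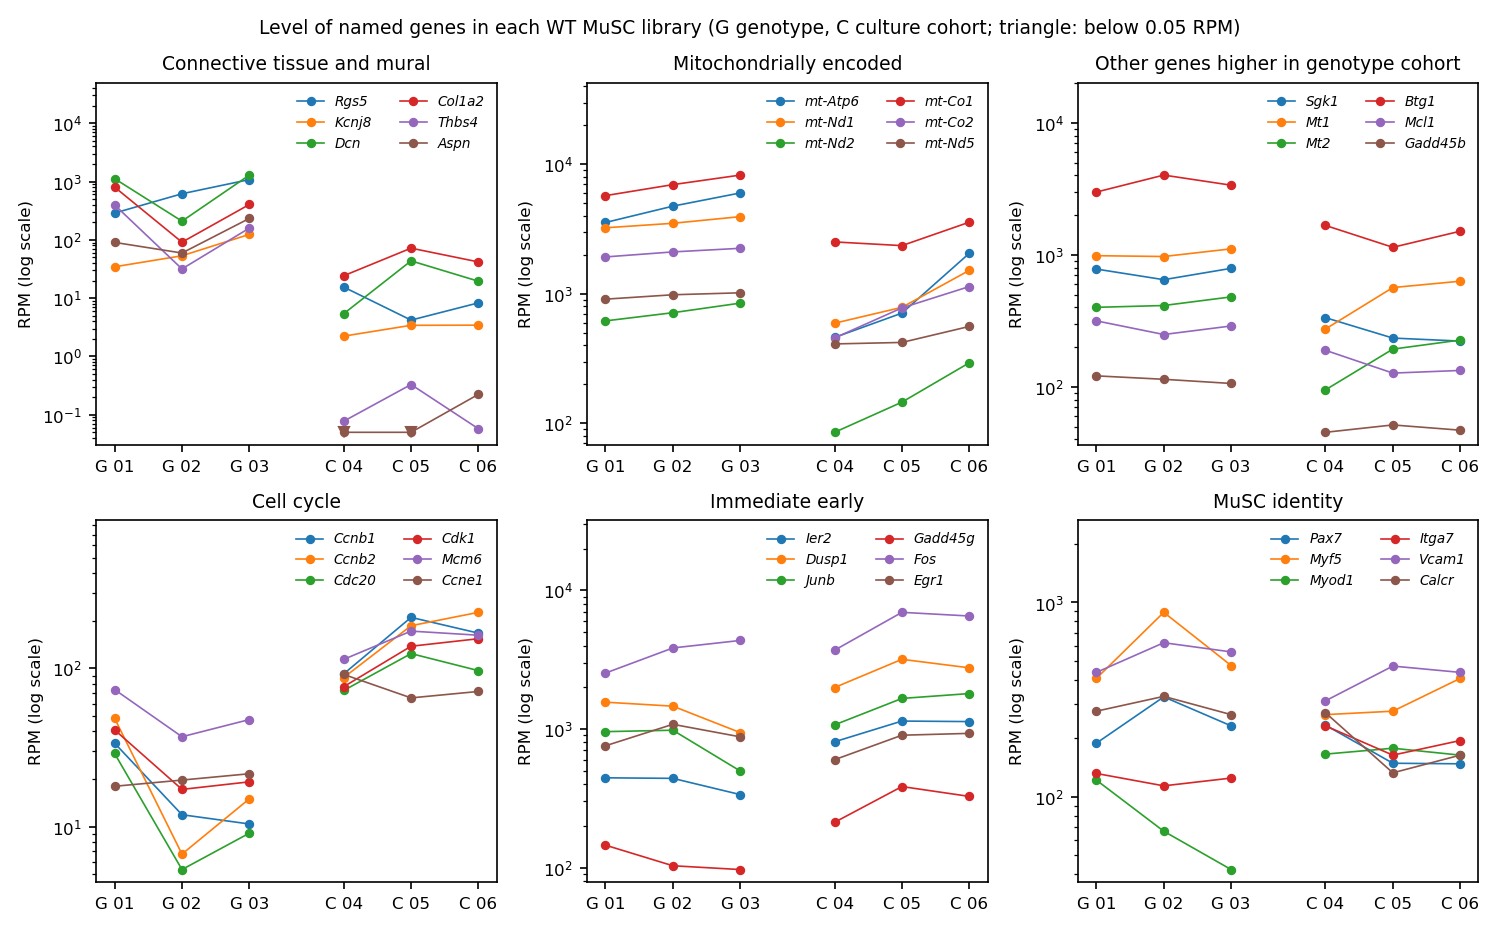
RPM (log scale) of 36 genes in each of the 6 WT MuSC libraries, in 6 panels by gene group; lines only join the points of 1 gene. In the first 2 panels every genotype-cohort point of a gene lies above its culture-cohort points, in the cell cycle panel every one lies below, and in the MuSC panel the points of Pax7, Myf5, Vcam1 and Calcr overlap.

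Transcripts of the mitochondrial genome ranked higher in the genotype cohort. The mitochondrial genome encodes 13 proteins of the respiratory chain and ATP synthase, and most of their mRNAs are polyadenylated. All 13 genes passed 10 RPM, the ranks of all 13 did not overlap between the cohorts (beside 15.3% of all genes) and 12 were called (beside 2.01%). Their summed level was 28400, 32400 and 40500 RPM in the genotype cohort and 8550, 10800 and 17100 RPM in the culture cohort. The median log2 rank fold was 2.00, while over all genes it was -0.018. mt-Atp6, a subunit gene of ATP synthase, was at 3560, 4760 and 6020 RPM against 461, 711 and 2060 RPM. mt-Nd1 and mt-Nd2 encode subunits of complex I. mt-Nd1 was at 3240, 3510 and 3950 RPM against 594, 788 and 1520 RPM, and mt-Nd2 at 619, 716 and 849 RPM against 85.4, 146 and 294 RPM. mt-Nd4, also of complex I, was at 1490, 1720 and 1900 RPM against 427, 466 and 752 RPM. The complex IV genes mt-Co2 and mt-Co3 were at 1930, 2110 and 2250 RPM against 457, 780 and 1140 RPM and at 4570, 4810 and 6800 RPM against 1400, 2150 and 3250 RPM. mt-Co1 and mt-Cytb, core genes of complexes IV and III, were at 5740, 6980 and 8270 RPM against 2520, 2360 and 3580 RPM and at 6060, 6490 and 9020 RPM against 2130, 2870 and 3840 RPM. Within the culture cohort, library 04 or 05 was the lowest and library 06 the highest for all 8 of these genes, and mt-Atp6 spanned 11.6-fold in rank. mt-Nd3 alone missed the 2-fold rule, at a log2 rank fold of 0.71. Ranked per kb, mt-Cytb was at 0.86 and mt-Co3 at 1.03, and neither was called. Without culture-cohort library 04, mt-Atp8 and mt-Nd4l fell to log2 rank folds of 0.92 and 0.97, and 10 genes stayed called. Without genotype-cohort library 03, mt-Atp8 was at 0.85.

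Nuclear copies share sequence with these genes. All 31-base words of the nuclear pseudogene Gm28437 are found in mt-Co3 and all of those of Atp6-ps in mt-Atp6, and 97.2% of those of Gm29216 in mt-Co1. The split of reads between them is uncertain. Gm29216 was at 2350, 2830 and 2970 RPM against 1080, 1140 and 1480 RPM, the same direction as mt-Co1.

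Cytosolic ribosomal protein genes leaned the same way. Of 83 that passed 10 RPM, 15 were called higher in the genotype cohort (18.1%, beside 2.01% of all genes) and 0 higher in the culture cohort. Ranks lay wholly above in the genotype cohort for 60 and in the culture cohort for 1, beside 15.3% and 18.1% of all genes. Their median log2 rank fold was 0.63. Rps27 was at 424, 434 and 578 RPM against 109, 188 and 278 RPM, Rpl37a at 894, 864 and 775 RPM against 251, 374 and 464 RPM, and Rps28 at 257, 244 and 311 RPM against 53.6, 123 and 173 RPM. In each, culture-cohort library 04 was the lowest of the 6. In Rps23 and Rpl23 the culture-cohort libraries lay close together, with 192, 213 and 211 RPM for Rps23 against 391, 397 and 421 RPM in the genotype cohort, and 217, 224 and 277 RPM for Rpl23 against 443, 439 and 474 RPM. No ribosomal protein gene spanned 2-fold in rank within the genotype cohort, and 12 did within the culture cohort. The other called genes included Rpl22l1, Rpl30, Rpl37, Rpl38, Rpl39, Rpl41, Rps13, Rps25 and Rps29, with rank folds of 2.06 to 2.62. The count of 15 was 6 without culture-cohort library 04 and 25 without library 06. On a 2-fold difference of RPM in place of ranks it was 8. Many ribosomal protein transcripts are short, with a median canonical length of 1047 bases. Of the 3399 other genes up to the 90th percentile of their length, 2896 bases, 1.47% were called higher in the genotype cohort. The median log2 rank fold of these 3399 genes was -0.106. Over 8626 genes of all lengths, the Spearman correlation of rank difference and length was 0.221. Genes of 108 to 1839 bases had a median log2 rank fold of -0.071, and those of 5723 to 123193 bases 0.152. In the shorter and longer group, 1.97% and 0.464% were called higher in the culture cohort, and 2.95% and 2.55% in the genotype cohort. The part of length in the rank differences was not tested.

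Some single genes higher in the genotype cohort are known to respond to hormones, metals and stress. Sgk1, a kinase gene induced by glucocorticoids, was at 780, 648 and 790 RPM against 334, 234 and 222 RPM, a gap wider than the range within either cohort. The metallothionein genes Mt1 and Mt2, neighbours on chromosome 8 that bind zinc and copper and respond to both metals and glucocorticoids, were at 985, 971 and 1110 RPM against 274, 565 and 631 RPM and at 400, 413 and 480 RPM against 94.8, 193 and 226 RPM. These were the 3 called members of a list of 9, beside 2.01% of all genes. The ranks of the other 6 overlapped, including those of Tsc22d3, another glucocorticoid target, which was at 85.0, 80.8 and 48.4 RPM against 92.0, 103 and 112 RPM. Btg1, an antiproliferative gene, was at 2990, 4020 and 3370 RPM against 1670, 1140 and 1510 RPM. Gal, in the shared abundant set, was also called, at 2900, 3590 and 2730 RPM against 1650, 1910 and 1990 RPM. Its log2 rank fold of 1.06 was 0.92 without genotype-cohort library 02 and 0.94 without culture-cohort library 04, and 0.27 when genes were ranked by normalized counts per kb. Of 18 heat shock and chaperone genes only Dnajb4 was called (beside 2.01% of all genes), at 303, 310 and 370 RPM against 236, 161 and 139 RPM, and ranked per kb its log2 rank fold was 0.81.

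Cell cycle genes ranked higher in the culture cohort. Of 26 that passed 10 RPM, 9 were called higher there (beside 1.17% of all genes) and 0 in the genotype cohort. Ranks of 17 lay wholly above in the culture cohort, beside 18.1% of all genes. The median log2 rank fold was -0.89. Cyclin B1 and B2, with CDK1, drive entry into mitosis. Ccnb1 was at 33.7, 11.9 and 10.4 RPM in the genotype cohort and at 92.3, 210 and 167 RPM in the culture cohort, a 4.68-fold difference in rank. Ccnb2 was at 48.4, 6.71 and 15 RPM against 87.5, 186 and 226 RPM, and Cdk1 at 40.9, 17.2 and 19.2 RPM against 76.6, 138 and 154 RPM. Cdc20, an activator of the anaphase-promoting complex, was at 29.0, 5.36 and 9.10 RPM against 72.5, 124 and 96.8 RPM. Birc5, or survivin, a subunit of the chromosomal passenger complex, was at 36.3, 8.56 and 12.7 RPM against 44.8, 142 and 124 RPM. Prc1, which bundles the microtubules of the central spindle and is not on the list, was at 87.7, 37.6 and 15.5 RPM against 109, 318 and 254 RPM. In all 6 of these genes genotype-cohort library 01 was the highest of its cohort and culture-cohort library 04 the lowest of its own, so the nearest libraries of the cohorts were 01 and 04.

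Genes of other cell cycle steps were called as well. Ccne1, the cyclin of S phase entry, was at 18.0, 19.7 and 21.6 RPM against 91.6, 65.1 and 71.5 RPM, a gap wider than the range within either cohort. Mcm6, a subunit of the replicative helicase, was at 73.5, 37.0 and 47.5 RPM against 114, 172 and 162 RPM. The mitotic kinase gene Aurka was at 5.93, 2.67 and 4.04 RPM against 31.1, 42.6 and 34.0 RPM, and its log2 rank fold was -0.98 without culture-cohort library 05. Ccnd3, a D-type cyclin gene, was at 303, 381 and 209 RPM against 477, 541 and 513 RPM, and was at -0.79 without genotype-cohort library 03 and -0.89 ranked per kb. Mcm6 was at -0.98 ranked per kb. Mki67, the common proliferation marker, was at 65.3, 17.4 and 13.3 RPM against 62.4, 93.7 and 108 RPM and overlapped. Summed over the list, the level was 1530, 1140 and 1040 RPM against 2010, 3240 and 3100 RPM. The count of 9 was 15 without genotype-cohort library 01, 14 without culture-cohort library 04 and 14 on a 2-fold difference of RPM.

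The promoters of 4 of these genes are shown as examples from a group that moved together. The letters CCAAT and TTTGAA, the latter known as the cell cycle genes homology region, recur in promoters of mitotic genes. Each run is the 250 bases before the annotated start, from RefSeq on GRCm38.p6, read 5′ to 3′ on the gene's strand, with every match to CCAAT or TTTGAA on either strand in capitals. The windows are chr13:100786487-100786736 for Ccnb1, chr9:70421555-70421804 for Ccnb2, chr4:118437344-118437593 for Cdc20 and chr10:69352913-69353162 for Cdk1, all on the minus strand.
Ccnb1: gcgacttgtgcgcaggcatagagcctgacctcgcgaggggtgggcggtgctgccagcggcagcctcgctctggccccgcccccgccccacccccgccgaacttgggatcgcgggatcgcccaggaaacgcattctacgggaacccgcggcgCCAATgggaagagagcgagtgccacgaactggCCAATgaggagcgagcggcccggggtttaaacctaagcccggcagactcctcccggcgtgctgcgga
Ccnb2: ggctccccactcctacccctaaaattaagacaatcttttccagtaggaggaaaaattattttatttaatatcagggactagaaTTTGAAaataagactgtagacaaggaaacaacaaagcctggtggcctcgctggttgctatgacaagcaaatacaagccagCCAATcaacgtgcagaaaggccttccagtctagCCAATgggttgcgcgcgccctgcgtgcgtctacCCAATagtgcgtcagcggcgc
Cdc20: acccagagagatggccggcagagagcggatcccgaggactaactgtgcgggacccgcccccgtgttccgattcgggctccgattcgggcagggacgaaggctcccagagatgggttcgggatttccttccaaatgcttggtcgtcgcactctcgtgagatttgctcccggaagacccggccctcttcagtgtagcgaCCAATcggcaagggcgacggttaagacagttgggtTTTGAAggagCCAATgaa
Cdk1: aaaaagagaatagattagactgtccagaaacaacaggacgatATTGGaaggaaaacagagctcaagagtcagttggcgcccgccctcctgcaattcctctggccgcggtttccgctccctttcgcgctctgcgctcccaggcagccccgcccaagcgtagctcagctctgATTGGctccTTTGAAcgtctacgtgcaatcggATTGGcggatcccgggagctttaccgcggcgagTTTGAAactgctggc
The Ccnb1 window holds 2 CCAAT matches and 0 of TTTGAA, Ccnb2 3 and 1, Cdc20 2 and 1, and Cdk1 3 and 2. The windows of Birc5, which moved with these 4, and of Ccne1 are not shown, and each holds 0 and 0. Matches of the motifs can overlap at their ends and were counted for each motif separately. All 9 called cell cycle genes had a window in the table, and 7 of the 9 had a CCAAT match and 3 a TTTGAA match. Of the 21 matched genes of the whole list, called or not, 18 had CCAAT and 6 TTTGAA. By windows, CCAAT was in 70.0% of 10 for the called genes and in 82.6% of 23 for the whole list, and TTTGAA in 30.0% and 26.1%. Among all 32851 windows of the table, 33.8% held CCAAT and 16.0% TTTGAA. Among the 8659 windows of the ranked genes, from which the calls were made, 35.3% held CCAAT and 10.7% TTTGAA. Among the 78 matched protein-coding genes called higher in the culture cohort, 47.5% of 101 windows held CCAAT and 15.8% TTTGAA, and among the 122 matched on the genotype-cohort side, 29.9% and 9.74% of 154 windows. A match is a run of letters and not a shown binding site.

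Immediate early genes were called in both directions. Of 34 that passed 10 RPM, 4 were called higher in the culture cohort and 4 in the genotype cohort, beside 1.17% and 2.01% of all genes. Ranks of 7 lay wholly above in the culture cohort and of 13 in the genotype cohort, beside 18.1% and 15.3% of all genes. The list median log2 rank fold was 0.23. Ier2 was at 444, 440 and 336 RPM in the genotype cohort and at 808, 1140 and 1130 RPM in the culture cohort, a 4.07-fold difference in rank with a gap wider than the range within either cohort. Dusp1, a phosphatase gene that switches off MAP kinases, was at 1560, 1460 and 941 RPM against 1990, 3180 and 2760 RPM. The AP-1 gene Junb was at 956, 979 and 497 RPM against 1070, 1660 and 1800 RPM, and its log2 rank fold was -0.95 without genotype-cohort library 03. Gadd45g was at 145, 103 and 96.7 RPM against 212, 384 and 326 RPM. Fos itself, at 2530, 3840 and 4350 RPM against 3700, 6940 and 6530 RPM, overlapped and was not called.

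On the other side, Btg1, Fosl2, Mcl1 and Gadd45b ranked higher in the genotype cohort. Fosl2, which like Junb encodes an AP-1 subunit, was at 243, 324 and 177 RPM against 153, 71.6 and 106 RPM. Mcl1, an anti-apoptotic gene, was at 316, 249 and 289 RPM against 189, 127 and 133 RPM. Gadd45b, a paralog of Gadd45g, was at 121, 114 and 106 RPM against 45.2, 51.4 and 46.9 RPM. The paralogs were thus called in opposite directions. Ranked per kb, Fosl2 and Mcl1 were not called, at 0.90 and 0.89. The summed level of the list was 16500 to 21100 RPM against 17400 to 24000 RPM. Without culture-cohort library 04, 8 members were called higher in the culture cohort and 7 in the genotype cohort, and without genotype-cohort library 01, 4 and 7.

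Of 32 genes of MuSC identity and quiescence, 3 were called, 1 of them higher in the genotype cohort and 2 in the culture cohort, beside 2.01% and 1.17% of all genes. Myod1, the myogenic factor induced on activation, was higher in the culture cohort at 122, 66.6 and 42.3 RPM against 166, 178 and 164 RPM, with genotype-cohort library 01 closest to the culture cohort. Its log2 rank fold of -1.12 was -0.83 without genotype-cohort library 03 and -0.90 ranked per kb. Col5a1, a chain of collagen V, which MuSCs make as a niche component, was at 295, 254 and 215 RPM against 620, 562 and 423 RPM. Gas1, a growth arrest gene, was higher in the genotype cohort at 343, 696 and 344 RPM against 339, 154 and 203 RPM, and its log2 rank fold of 1.38 was 0.88 without genotype-cohort library 02. Itga7, the integrin gene whose product was used in the sort, was at 132, 114 and 125 RPM against 232, 164 and 195 RPM without overlap, but its ranks were 1.58-fold apart and it was not called. Over the list, ranks of 6 genes lay wholly above in the culture cohort and of 3 in the genotype cohort, beside 18.1% and 15.3% of all genes. The median of the list was 0.05.

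Collagen chains, which build the matrix around MuSCs, were called in both directions. Of 17, Col1a2 and Col6a3 were called higher in the genotype cohort, and Col5a1 and Col4a1 in the culture cohort, beside 2.01% and 1.17% of all genes. Ranks of 2 lay wholly above in the genotype cohort and of 6 in the culture cohort, beside 15.3% and 18.1% of all genes. The list median log2 rank fold was -0.27. Ranked per kb, Col6a3, Col5a1 and Col4a1 were not called, with log2 rank folds of 0.83, -0.71 and -0.58. Col4a1, a basement membrane chain, was at 574, 507 and 447 RPM against 847, 832 and 809 RPM. Its neighbour Col4a2 was at 167, 168 and 161 RPM against 260, 273 and 260 RPM without overlap, with a log2 rank fold of -0.79. Col6a3 was at 51.5, 5.64 and 34.6 RPM against 0.0244, 0.0519 and 0.0451 RPM, and without genotype-cohort library 01 its mean did not reach 10 RPM.

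Other large differences toward the culture cohort were in genes of no list. Capn6, a calpain gene without protease activity, was at 290, 267 and 310 RPM against 569, 782 and 679 RPM. The nucleosome-binding gene Hmgn2 was at 1690, 877 and 1250 RPM against 1760, 2510 and 2740 RPM. Tacc1, a coiled-coil gene, was at 125, 137 and 104 RPM against 347, 283 and 290 RPM. Klf13, a zinc-finger factor gene, was at 196, 229 and 95.6 RPM against 605, 296 and 313 RPM. Phlda3, a p53 target that represses AKT, was at 37.3, 29.8 and 19.7 RPM against 108, 129 and 120 RPM. Paip1, which encodes a poly(A)-binding protein partner, was at 22.3, 27.2 and 15.3 RPM against 154, 130 and 116 RPM. Ranked per kb, Tacc1 and Klf13 were at log2 rank folds of -0.79 and -0.81 and were not called. In Capn6, Tacc1, Phlda3 and Paip1 the gap was wider than the range within either cohort.

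Several lists held few or no calls. None of 23 interferon-stimulated genes, 14 clock genes, 13 imprinted growth genes, 10 myofiber genes or 4 erythroid genes was called. Beside these counts of 0, ranks of 5 interferon-stimulated genes lay wholly above in the culture cohort and of 0 in the genotype cohort, beside 18.1% and 15.3% of all genes, with a list median of -0.27. Irf1 was at 154, 315 and 310 RPM against 353, 497 and 343 RPM. Of the imprinted genes, 4 lay wholly above in the culture cohort and 3 in the genotype cohort, beside the same shares. Of 9 cytokine and chemokine genes only Cxcl12 was called, beside 2.01% of all genes, and its log2 rank fold of 1.15 was 0.92 without genotype-cohort library 03 and 0.85 ranked per kb.

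**Figure D4:**
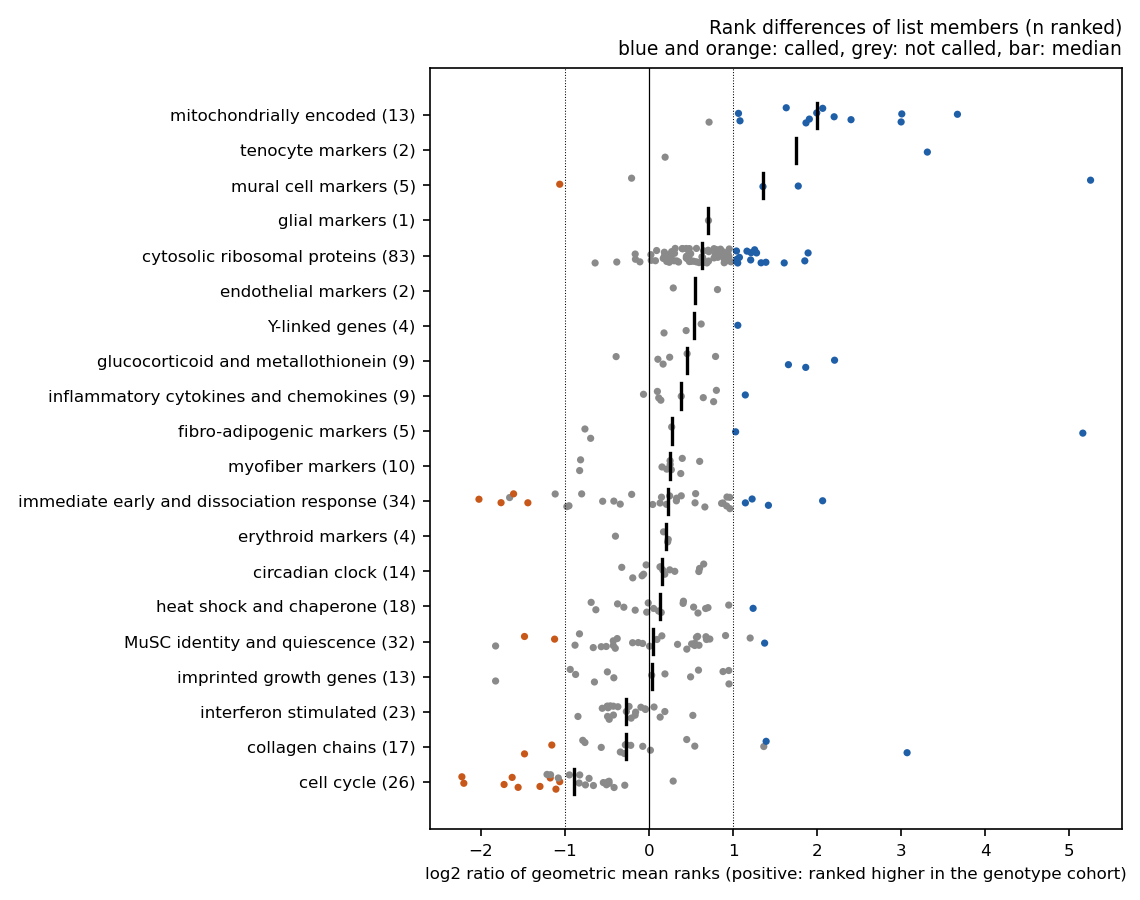
Rank differences of the members of each gene list that passed 10 RPM, as the log2 ratio of geometric mean ranks (x axis, positive when ranked higher in the genotype cohort). Each point is 1 gene, blue or orange when called, and black bars mark list medians. The mitochondrially encoded list has the highest median, 2.00, and the cell cycle list the lowest, -0.89.

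The 4 Y-linked genes were present in all 6 libraries, and Xist and Tsix, which mark an inactive X chromosome, were listed in neither table. Ddx3y was at 325, 394 and 340 RPM against 242, 163 and 226 RPM and was called higher in the genotype cohort, with a log2 rank fold of 1.06 that was 0.94 without genotype-cohort library 02 and 0.83 without culture-cohort library 05, and 0.74 ranked per kb. Eif2s3y was at 172, 186 and 212 RPM against 148, 136 and 127 RPM, Uty at 41.0, 50.2 and 60.4 RPM against 40.4, 20.2 and 41.7 RPM, and neither was called. The ranks of both nevertheless lay wholly above in the genotype cohort. Of the 4 Y-linked genes, ranks of 3 did so, beside 15.3% of all genes, and 1 was called, beside 2.01%. Kdm5d was at 17.3, 28.6 and 33.3 RPM against 17.8, 22.8 and 24.3 RPM. Nedd4l, the gene deleted in part in the Nedd4L-cKO mice, was at 72.2, 104 and 69.7 RPM against 118, 73.2 and 75.0 RPM, and its geometric mean ranks were 2535 and 2528. The gene was not deleted in any of these 6 libraries by their labels.

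In the genotype cohort, the hemoglobin gene Hba-a2 and Col1a2, Col1a1, Dcn and Thbs4 had the widest ranges of rank, and Myog, the myogenic factor of early differentiation, came next at 566, 192 and 77.1 RPM beside 687, 680 and 515 RPM in the culture cohort. Cdkn1c, a cell cycle inhibitor gene, was at 672, 202 and 185 RPM beside 749, 814 and 542 RPM. For Myog, Cdkn1c and the mitotic genes, genotype-cohort library 01 was the one nearest to the culture cohort. In the culture cohort, library 04 was low for the LIM-domain gene Crip1, for the actin-binding genes Tmsb10 and Tagln, for the interferon-induced Ifitm3 and for the sterol synthesis genes Msmo1 and Idi1. Ifitm3 was at 221 RPM in library 04 and at 549 and 691 RPM in libraries 05 and 06. Idi1 was at 32.0, 106 and 192 RPM beside 173, 273 and 406 RPM in the genotype cohort. Library 04 was high for Gfpt2 at 593, 168 and 179 RPM and for the surface marker gene Cd34 at 410, 121 and 172 RPM. The genes of this paragraph, and in the paragraphs above Pecam1, Col1a1, Tsc22d3, Mki67, Fos beside the called immediate early genes, Irf1, Col4a2 and the marker genes that were not called, were chosen after their values were seen.

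The other libraries of the same tables give the levels that the shared processing produced beside the WT cells. Rgs5 was at 306, 1210 and 2110 RPM in MuSCs of the Nedd4L-cKO mice and at 9.86, 24.2 and 8.73 RPM in myoblasts. Dcn was at 1900, 638 and 228 RPM in Nedd4L-cKO MuSCs and at no more than 0.748 RPM in myoblasts. mt-Atp6 was at 7370, 8660 and 11100 RPM and at 1130, 718 and 885 RPM. Mt2 was at 1100, 1250 and 1040 RPM and at 3.60, 3.56 and 6.77 RPM. Ccnb1 was at 79.0, 60.2 and 77.2 RPM in Nedd4L-cKO MuSCs, between the WT levels of the cohorts, and at 332, 282 and 147 RPM in myoblasts. Ier2 was at 142, 151 and 235 RPM and at 85.9, 58.3 and 51.0 RPM, below all 6 WT MuSC libraries. With the 6 libraries of each table set against each other, which adds genotype and culture differences, 504 of 9148 genes (5.51%) separated the tables, among them all 13 mitochondrially encoded genes and 155 of the 275 genes called in WT MuSCs.

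**Figure D5:**
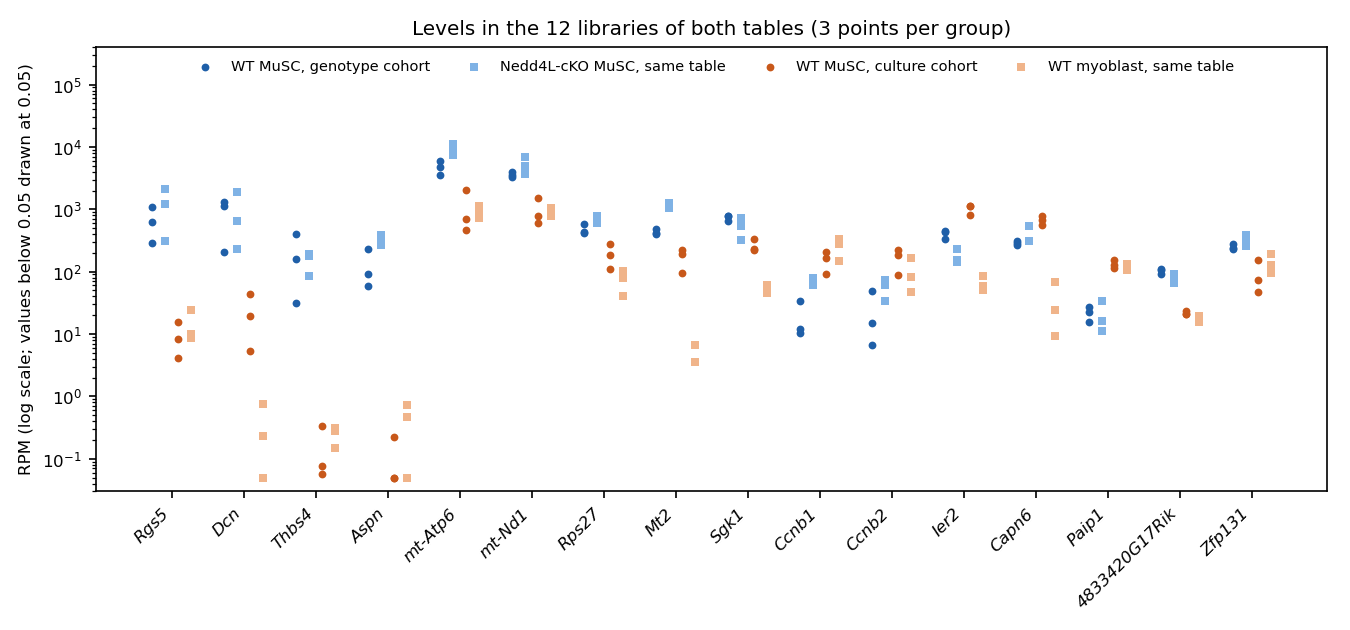
RPM (log scale) of 16 genes in the 12 libraries of the series, 3 points per group; values under 0.05 are drawn at 0.05. Dark points are WT MuSCs and light squares the other group of the same table. For Rgs5, Aspn, mt-Atp6, Paip1 and 4833420G17Rik the groups of one table lie on one side of those of the other, while for Ier2 the WT MuSCs of the culture cohort lie above all other libraries.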

How the data were processed

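The authors pseudoaligned reads with kallisto 0.46.1 to GENCODE M28 transcripts (GRCm39), summed them to genes with tximport and normalized each table with DESeq2. The deposited values used here are these normalized counts, a signal that is not raw counts. The scaling is gene-specific within a library, so reads and depth could not be recovered. The authors' own fold changes, p-values and RPM columns were not used.

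Here, tables were joined by gene ID. RPM were computed over the joined genes, and ranks within each library, ties averaged. Genes were called as stated in the report, at a minimum mean of 10 RPM. No test between cohorts was made, because the tables were normalized separately and 3 against 3 libraries allow an exact permutation p no lower than 0.1. Lengths and coordinates are from GENCODE M39 (GRCm39). Named genes were the 15 called protein-coding genes with the largest rank fold in each direction, the 15 first shared abundant genes, called list members, 7 defining MuSC genes, Nedd4l and the Y-linked genes. Members, lists and rules were chosen with earlier results of these data known. The labels give each WT MuSC library its own number, and each culture-cohort number recurs on 1 myoblast library of the same mice. The call rule was tested on simulated data with independent noise in each library. That simulation held no effect of table, transcript length or a deviating library, so it does not show how the rule handles these. Python 3.11.15, pandas 2.3.3, numpy 2.4.6 and matplotlib 3.10.9 were used. Some genes that the rule names are not reported here.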

Additional observations from a re-analysis of the deposited data

Results flagged for a closer look

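The 3 tendon and cornea matrix genes Fmod, Tnmd and Kera had signal in the genotype table and were not listed in the culture table, so they entered no comparison. They were chosen, after their values were seen, from the 18 such genes that averaged 10 RPM or more. Fmod, which encodes fibromodulin, averaged 337 RPM in the WT libraries of the genotype cohort, at 623, 82.0 and 306 RPM. Tnmd, the tenocyte gene tenomodulin, averaged 276 RPM, at 514, 67.1 and 247 RPM. Kera, which encodes keratocan, averaged 231 RPM, at 432, 35.7 and 225 RPM. In Nedd4L-cKO MuSCs, Fmod was at 199, 177 and 115 RPM. As for Dcn and Thbs4, library 02 was the lowest WT library for all 3.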

How the results depend on the processing

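The count of genes apart in rank depended on the rule. Of 275 called genes (174 higher in the genotype cohort, 101 in the culture cohort), ranks 1.5-fold apart gave 985 (526 and 459), 3-fold 61 (47 and 14), 10 percentile points 933 (508 and 425), RPM 2-fold apart 609 (290 and 319) with a pseudocount of 1 and 669 (309 and 360) with 0.1, and a gap above the wider within-cohort range 91 (58 and 33). Ranking per kb gave 173, of which 57 were higher in the culture cohort. All 12 libraries, an alternative chosen after seeing the data like the list counts on RPM, gave 504 (285 and 219). Leaving out 1 library gave 260 to 378 in all and 85 to 171 higher in the culture cohort, most without genotype-cohort library 01. Shared abundant genes numbered 31 in the top 50, 127 in the top 200 and 351 in the top 500. On RPM, list counts became 8 for ribosomal proteins, 14 for the cell cycle and 7 for immediate early genes higher in the genotype cohort. Leaving out 1 library, these were 6 to 25, 8 to 15 and 4 to 7, and 4 to 8 for immediate early genes higher in the culture cohort. Over all joined genes, median correlations were 0.964, 0.962 and 0.943 within the genotype cohort, within the culture cohort and between them. Of 75 called genes named by rule, 33 lost their call under some alternative, 20 of them per kb and 14 without culture-cohort library 04. No direction reversed among the alternatives run. The causes were not tested. No paired analysis was possible because the cohorts share no replicate number. Depth is unknown, so values near 0 cannot be told apart from absence.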

Other observations

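A run of neighbouring genes on chromosome 13 (GRCm39) differed between the WT MuSCs of the cohorts in both directions, and was chosen after the values were seen. Paip1 (chr13:119564882-119594754) was higher in the culture cohort, as given above, at 11.1, 16.4 and 33.8 RPM in Nedd4L-cKO MuSCs and 107, 119 and 135 RPM in myoblasts. 4833420G17Rik (chr13:119599267-119623229) went the other way, at 108, 109 and 91.9 RPM in WT MuSCs of the genotype cohort, 65.7, 90.8 and 82.4 RPM in Nedd4L-cKO MuSCs, 20.8, 23.4 and 20.7 RPM in WT MuSCs of the culture cohort and 17.7, 19.7 and 15.8 RPM in myoblasts. Zfp131 (chr13:120224222-120253170), a zinc-finger gene, was at 227, 242 and 274 RPM against 47.2, 72.5 and 152 RPM in WT MuSCs. Nnt, the mitochondrial transhydrogenase gene, overlaps the start of Paip1 and was at 14.9, 12.5 and 12 RPM against 2.60, 8.96 and 8.99 RPM in WT MuSCs. Nnt was at 11.3, 22.3 and 18.0 RPM in Nedd4L-cKO MuSCs and at 26.4, 35.6 and 40.7 RPM in myoblasts, so it did not separate the tables. Without strand, reads of overlapping genes cannot be told apart. On the whole chromosome, 6.04% of 331 genes were called, beside 3.18% of all genes.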
